A study of Oryza sativa with 6 samples.

Results

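The line 14 comparison covered 4 of the 6 arrays of a rice (Oryza sativa) seed study, namely both arrays titled A-OsMADS29 (line14) and both arrays of the wild type ZH11. The arrays were chosen by title. Each array measured RNA of nucellar projection cells at 3 days after flowering, cut from fixed seeds by laser capture microdissection, a method that isolates chosen cells under a microscope. After 2 rounds of amplification, the RNA was labelled with 1 dye (Cy3) for Agilent arrays.

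Line 14 carries the label OsMADS29 mutant in the ZH11 genetic background, and ZH11 is labelled wild type. Plants of both groups, and of A-OsMADS29 line 2, were grown alike in pots in a phytotron with 12 h of light at 26 °C and 12 h of dark at 18 °C. The labels do not say how the lines were made, what drives the construct or what the prefix of the name stands for. Line 14 is a single line, so an effect of OsMADS29 and an effect peculiar to that line cannot be told apart. The design names independent biological samples but not the number of plants or seeds behind each. The line 14 arrays were the only arrays on slide 2, whereas ZH11 and line 2 shared slide 1. Line and slide therefore cannot be told apart in any comparison of line 14 below.

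As background, MADS-box proteins are DNA-binding transcription factors that act in dimers and larger complexes and are best known for setting floral organ identity. OsMADS29 belongs to the B-sister branch of the family, whose members act in the maternal tissues of ovules and seeds. The nucellar projection is a strip of maternal nucellus next to the dorsal vascular bundle of the young grain, through which nutrients pass toward the endosperm. Its cells, like the rest of the nucellus, are dismantled by programmed cell death as the endosperm fills, and the series title ties OsMADS29 to that breakdown.

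Signals are given as log2 relative to the 75th percentile of the array, so 0 is that percentile and each unit is a doubling. A probe well above background is here called detected. Of 42418 probes, the line 14 arrays detected 72.9% and 72.9%, against 75.6% and 76.7% on the ZH11 arrays. Across genes, the line 14 replicates correlated at 0.958 and the ZH11 replicates at 0.916. Of the 22284 genes and microRNA probes tested, 16.2% lay over 2-fold apart between the line 14 replicates and 26.1% between the ZH11 replicates. The excess of 5' over 3' probe signal, a measure of RNA integrity taken as a median of 391 loci and centred on the mean of the 6 arrays, was -0.19 and -0.10 in line 14, against -0.33 and 0.07 in ZH11.

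OsMADS29, the gene named in the label of the line, was detected on all 4 arrays by both of its probes. Its locus, Os02g0170300, was assigned from general knowledge, since the files do not pair loci with gene names. At the probe annotated to coding sequence plus 3' UTR, the signal was 0.17 and -0.00306 in line 14, against 0.38 and 0.88 in ZH11. Both line 14 arrays lay below both ZH11 arrays at this probe. The means were 0.08 ± 0.12 in line 14 and 0.63 ± 0.35 in ZH11 (SD, n = 2 each). The difference was -0.55 (SE 0.47, 95% confidence interval -1.74 to 0.65) and did not pass the test (limma adjusted p = 0.894). The exact two-sided permutation test gave p = 0.333, the smallest value that 2 arrays against 2 allow. The lower end of the interval is a level 3.34-fold lower in line 14.

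The other OsMADS29 probe, over the 5' UTR and coding sequence, read -4.08 and -4.43 in line 14, against -4.63 and -3.42 in ZH11. Here the line 14 arrays lay between the ZH11 arrays, with a difference of -0.23 (SE 0.52, 95% confidence interval -1.53 to 1.08). The labels do not give the altered part of the gene, so neither probe checks the label of the line.

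The comparison asked which transcripts differ in nucellar projection cells of a plant line altered in OsMADS29. limma called 9 genes at an adjusted p of 0.05, of which 7 were higher and 2 lower in line 14. These are 0.0404% of the 22284 tested, 0.0314% higher and 0.00898% lower. In all 9 the arrays of the groups did not overlap, a condition met by 35.1% of the genes with values on all 4 arrays. The 7 genes called higher were detected on both line 14 arrays and on neither ZH11 array. Of the 2 genes called lower, 1 was detected on no line 14 array and the other on both.

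The calls were sensitive to the processing. Quantile normalization gave 16 higher and 14 lower, which moves the share called higher, and 8 of the 9 genes were among those 30. With any 1 of the 6 arrays left out limma called 0 genes, although between 1103 and 3842 had an unadjusted p under 0.05 in those fits. Such fits leave 1 group with 1 array, which is assumed to vary like the others.

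**Figure D1:**
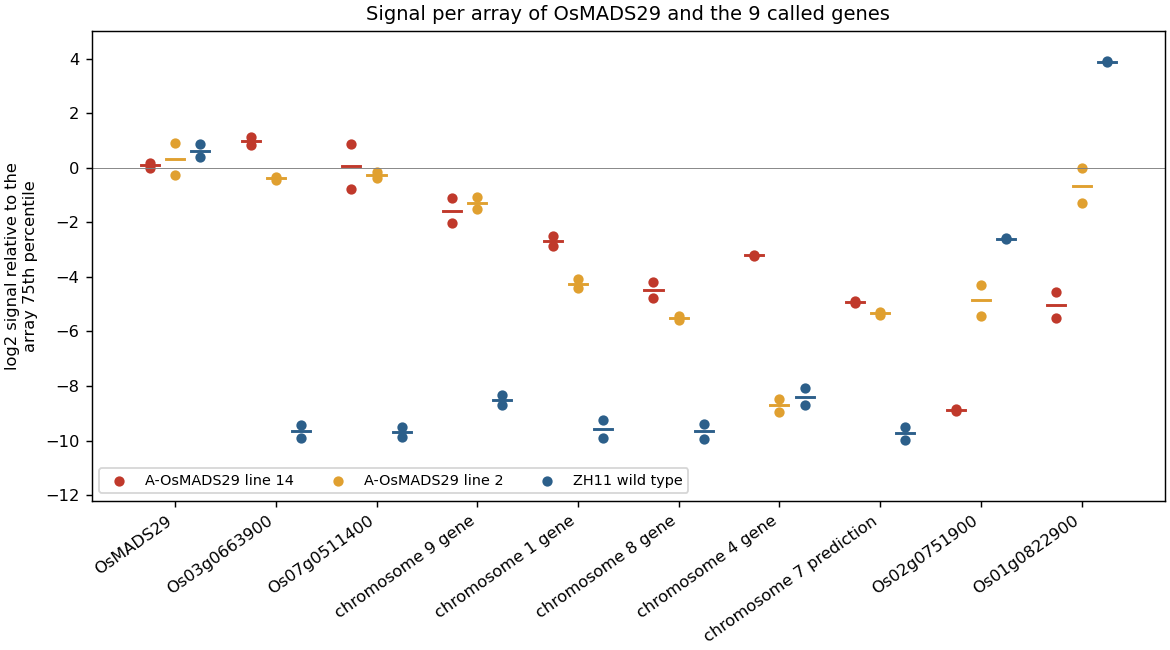
Log2 signal relative to the array 75th percentile (vertical axis) for OsMADS29 and the 9 called genes (horizontal axis). Points are single arrays of line 14 (red), line 2 (yellow) and ZH11 (blue), and bars are group means over n = 2. The 7 genes called higher sit between -9.98 and -8.08 in ZH11, and Os01g0822900 sits at 3.86 and 3.91 in ZH11 and at or below -4.54 in line 14.

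Os03g0663900 rose most. Its signal was 1.12 and 0.83 in line 14, against -9.43 and -9.89 in ZH11, where neither array detected it. The fitted difference was 10.63 (SE 0.32, limma adjusted p = 0.00425). Measured against the lowest signal among detected probes on each ZH11 array, or the probe's own signal where that was higher, it was at least 663-fold higher. Its probe was designed on a gene prediction with support from expressed sequence tags, on chromosome 3. Bounds of this kind hold for the processed signal only. After normexp background correction, whose offset lifts dim signals, and quantile normalization, the difference was 7.08, below that bound, with the direction and the call kept. The same holds for the genes that follow, whose normexp differences are given beside their bounds.

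Os07g0511400, on chromosome 7 and known from a full-length cDNA, had signals of -0.77 and 0.87 in line 14, against -9.50 and -9.89 in ZH11. Its line 14 replicates differed more than those of any other called gene, with a mean of 0.05 ± 1.16, and the ZH11 mean was -9.69 ± 0.27 (SD, n = 2 each). It was at least 350-fold higher in line 14 (fitted difference 9.75, SE 0.58, limma adjusted p = 0.0423). After normexp the difference was 6.33, again called.

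The other 5 genes called higher lay on chromosomes 1, 4, 7, 8 and 9, and all were dim in ZH11. The chromosome 9 gene, from a cDNA, read -1.12 and -2.02 in line 14, against -8.33 and -8.69 in ZH11, and was at least 113-fold higher (limma adjusted p = 0.0423), with a difference of 4.37 after normexp. The chromosome 1 gene, also from a cDNA, read -2.52 and -2.86 in line 14, against -9.25 and -9.92 in ZH11, and was at least 52.3-fold higher (limma adjusted p = 0.0423). Its difference was 3.51 after normexp, where it was called, and 4.41 after quantile normalization, where it was not (limma adjusted p = 0.212). Its second probe gave the same direction, with -3.62 and -3.60 in line 14, against -6.75 and -9.46 in ZH11, of which the first was detected. The ZH11 replicates thus disagreed at that probe. The chromosome 4 gene, from a cDNA as well, read -3.18 and -3.22 in line 14, against -8.08 and -8.70 in ZH11, and was at least 33.9-fold higher (limma adjusted p = 0.0461), with a difference of 2.91 after normexp. It passed the filter on dim probes through line 14 alone, and without that filter its call was lost (limma adjusted p = 0.105). The other 6 genes called higher passed it through line 14 and line 2, and without it only Os03g0663900 of the 9 called genes was still called.

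The remaining 2 came from gene predictions alone. The chromosome 8 prediction read -4.77 and -4.18 in line 14, against -9.39 and -9.94 in ZH11, and was at least 15.2-fold higher (limma adjusted p = 0.0461). The chromosome 7 prediction read -4.96 and -4.90 in line 14, against -9.49 and -9.98 in ZH11, and was at least 11.0-fold higher (limma adjusted p = 0.0423). Its second probe gave a difference of 4.56, close to the 4.80 of the first. After normexp these 2 lost their call, with differences of 2.20 (limma adjusted p = 0.0993) for the chromosome 8 prediction and 1.86 (limma adjusted p = 0.133) for the chromosome 7 prediction.

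Os01g0822900, on chromosome 1 and known from cDNAs, had the largest negative difference of the called genes. At the probe that represented the locus the signal was -5.51 and -4.54 in line 14, against 3.86 and 3.91 in ZH11. The means were -5.03 ± 0.69 in line 14 and 3.88 ± 0.03 in ZH11 (SD, n = 2 each). The difference was -8.91 (SE 0.56, 95% confidence interval -10.32 to -7.50, limma adjusted p = 0.0423), a level 481-fold lower in line 14. It is the only called gene that both groups detected on all arrays, so its size does not rest on a floor.

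The array held 7 probes for Os01g0822900, from 7 cDNA accessions, 6 annotated to coding sequence plus 3' UTR and 1 to UTR. At all 7 probes both line 14 arrays lay below both ZH11 arrays. Line 14 replicate 1 detected only the probe above, so at the other 6 the line 14 level was measured on replicate 2 alone. There replicate 2 read between -6.18 and -5.92, against 2.79 to 3.27 on the ZH11 arrays. Replicate 1 was the dimmer at each probe. The probes read the same RNA, so they are repeat measurements and not replicates of the line. In line 2 the same probes lay between, from -2.86 to -0.02.

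**Figure D2:**
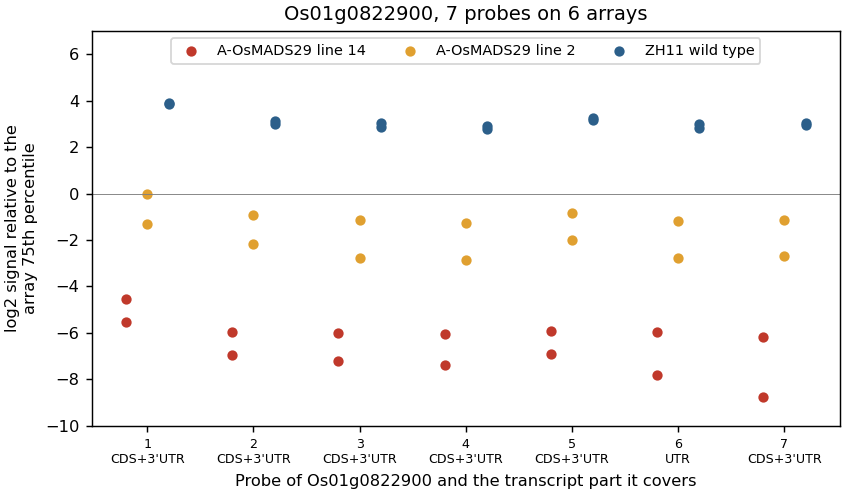
Log2 signal relative to the array 75th percentile (vertical axis) at the 7 probes of Os01g0822900 (horizontal axis, with the transcript part each covers), ordered by the line 14 difference. Points are arrays of line 14 (red), line 2 (yellow) and ZH11 (blue), and the 3 groups stand apart at every probe, with line 14 lowest.

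Os02g0751900, on chromosome 2 and known from a cDNA, was the other gene called lower. It read -8.85 and -8.91 in line 14, where neither array detected it, against -2.59 and -2.63 in ZH11. Replicates agreed closely in both groups. It was at least 31.6-fold lower in line 14 (fitted difference -6.27, SE 0.44, limma adjusted p = 0.0461), and after normexp the difference was -3.88, still called. The call was lost after median scaling (limma adjusted p = 0.0553). It was also lost where the error was allowed to follow signal intensity (limma adjusted p = 0.0577).

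Line 2 offers values beside these, although it shares the ZH11 controls and so is no independent repeat. Line 2 minus ZH11 compares arrays of the same slide, whereas line 14 minus line 2 compares arrays of different slides. In line 2 minus ZH11 limma called 5 genes, or 0.0224% of those tested. Os03g0663900 was 9.27 above ZH11 in line 2 (limma adjusted p = 0.00883), Os07g0511400 was 9.42 above (limma adjusted p = 0.0449) and the chromosome 9 gene 7.22 above (limma adjusted p = 0.0449). The chromosome 1 gene was 5.33 above ZH11 in line 2 (limma adjusted p = 0.0524), the chromosome 7 prediction 4.40 above (limma adjusted p = 0.0524) and the chromosome 8 prediction 4.15 above (limma adjusted p = 0.0795), without passing the test. The 2 genes called lower in line 14 had line 2 differences of -4.54 for Os01g0822900 (limma adjusted p = 0.116) and -2.26 for Os02g0751900 (limma adjusted p = 0.285). Of the 7 genes called higher, 6 were detected on both line 2 arrays. The chromosome 4 gene had no such signal in line 2, where it read -8.95 and -8.46, overlapping the ZH11 arrays, with a difference of -0.31 from ZH11. Line 14 minus line 2 was 5.50 for it (95% confidence interval 4.60 to 6.41), which did not pass adjustment (limma adjusted p = 0.137). Between the lines limma made 0 calls, and 3.46% of genes (772) reached an unadjusted p under 0.05. Line 14 minus line 2 was -4.37 for Os01g0822900 (limma adjusted p = 0.551) and -4.01 for Os02g0751900 (limma adjusted p = 0.376), neither past the test.

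The neighbours of the called genes were the 4 tested loci on either side of each, 72 in all by locus number. Among them limma called 0, against 0.0404% of all genes tested, a share at which 0 of 72 says nothing particular about neighbours. An unadjusted p under 0.05 was found for 4 of the 72, against 7.12% of all genes tested. Of the 72, 9 were over 2-fold apart, or 12.5%. Over all genes tested the share was 15.3%, made up of 7.26% higher and 8% lower in line 14. The neighbours ranged from -2.23, beside the chromosome 4 gene, to 2.52, beside Os03g0663900. By chromosome, the median difference of all tested loci lay between -0.02 and 0.04 for all 12 chromosomes.

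Beyond the calls, the differences between line 14 and ZH11 were centred near 0, with a median of 0.01 and quartiles of -0.35 and 0.34. An unadjusted p under 0.05 was found for 711 genes higher in line 14, or 3.19%, and 875 lower, or 3.93%. The median half-width of the 95% confidence intervals was 1.04, so most changes under 2-fold were not detectable with 2 arrays a group, even without adjustment. With adjustment over all genes tested, the smallest difference called was 4.80, so changes far over 2-fold were also missed. Scaling arrays to their median in place of the 75th percentile moved the median of all genes to 0.12.

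Large differences were mostly those of genes with dim probes. The genes were split by mean signal into 4 sets of equal size. In the dimmest set 38.9% differed over 2-fold between line 14 and ZH11. In that set 33.6% differed that much between the line 14 replicates and 53.4% between the ZH11 replicates. In the brightest set the share was 2.27% between groups, against 4.96% between the line 14 replicates and 6.24% between the ZH11 replicates. In each set the share between group means was below that between the ZH11 replicates. Means of 2 arrays vary less than single arrays, so these shares are not on the same scale. The 9 called genes lay 5 in the dimmest set, 3 in the next, 1 in the third and 0 in the brightest.

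**Figure D3:**
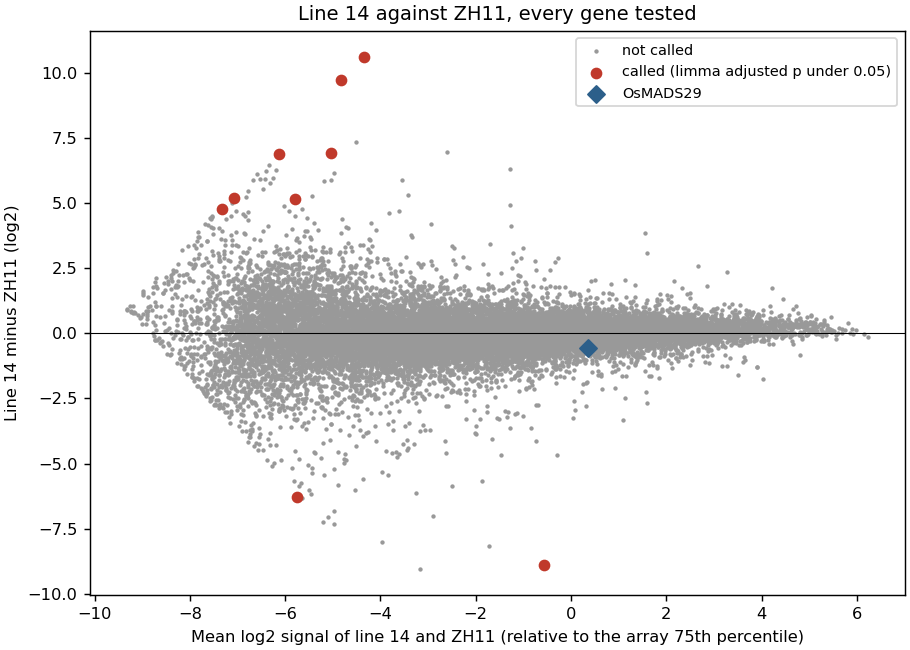
Difference of line 14 minus ZH11 on the log2 scale (vertical axis) against the mean log2 signal of both groups (horizontal axis) for every gene tested. Red points are the 9 called genes, the diamond is OsMADS29 at -0.55, and the cloud narrows from dim to bright genes.

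Among genes detected on all 4 arrays, 235 of 19565 differed over 4-fold, 91 higher and 144 lower in line 14, and of these only Os01g0822900 was called. The error of each gene was estimated from the replicates of every group, line 2 included, and in part from the other genes. Uncalled genes were picked only where the groups did not overlap and the unadjusted limma p was under 0.05. The largest positive difference so picked was in a cDNA-supported gene of chromosome 3. It read 2.20 and 1.57 in line 14, against -3.36 and -5.51 in ZH11. Its difference was 6.32 (SE 0.74, limma adjusted p = 0.101), and the gap between its ZH11 arrays was wider than that between its line 14 arrays. A gene of chromosome 10 read 1.27 and 1.11 in line 14, against -2.93 and -4.61 in ZH11 (difference 4.96, SE 0.63, limma adjusted p = 0.133). The 10 largest positive differences picked in this way spanned 11.0-fold to 79.9-fold, with limma adjusted p-values of 0.0578 to 0.526.

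By the same rule, the 10 largest uncalled negative differences among genes detected on all 4 arrays spanned 13.2-fold to 51.0-fold. Their limma adjusted p-values were 0.0578 to 0.666. The largest, at a gene prediction of chromosome 1, had an SE of 2.09. There line 14 read -4.71 and -4.72, ZH11 2.25 and -0.33, and line 2 -0.03 and -6.32. A gene of chromosome 6 read -1.87 and -3.37 in line 14, against 1.97 and 2.13 in ZH11 (difference -4.67, SE 0.63, limma adjusted p = 0.147). Both line 14 arrays lay below 0 and both ZH11 arrays above. A cDNA-supported gene of chromosome 1 read -3.02 and -2.58 in line 14, against 1.79 and 0.91 in ZH11 (difference -4.15, SE 0.40, limma adjusted p = 0.0797). In line 2 that gene differed from ZH11 by -0.27, with line 2 arrays at 1.05 and 1.10, inside the range of the ZH11 arrays. For line 14 minus line 2 its limma adjusted p was 0.314.

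At loci with several probes, the probes mostly gave the same direction. For 6473 loci the differences of the brightest and the second brightest probe had a Pearson's r of 0.757, a description across loci that share arrays and RNA. Where the brightest probe differed over 2-fold, as at 541 loci, the second had the same sign at 91.5%. Over 4-fold, it had the same sign at 128 of 134 loci, and over 8-fold at 49 of 50.

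Fewer probes were detected in line 14 alone than in ZH11 alone. On both line 14 arrays and neither ZH11 array, 149 probes were detected, or 0.351% of 42418. On both ZH11 arrays and neither line 14 array, 706 were detected, or 1.66%. The line 14 arrays detected fewer probes in all, and the lowest signal of a detected probe was higher on them, at -7.60 and -7.59, against -8.31 and -8.49 on the ZH11 arrays. The part of this in the counts was not tested. Among probes at least 4-fold over the array's own lowest detected signal on both detecting arrays, the counts were 78 for line 14 and 331 for ZH11. At 16-fold they were 7 for line 14 and 41 for ZH11.

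Of the 149 probes detected in line 14 and not in ZH11, 91 were detected on both line 2 arrays and 19 on neither. Of the 706 detected in ZH11 and not in line 14, 284 were detected on both line 2 arrays and 129 on neither. The 149 probes belonged to 132 loci or microRNA probes and included 2 microRNA probes. The 706 belonged to 657 and included 17 microRNA probes.

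**Figure D4:**
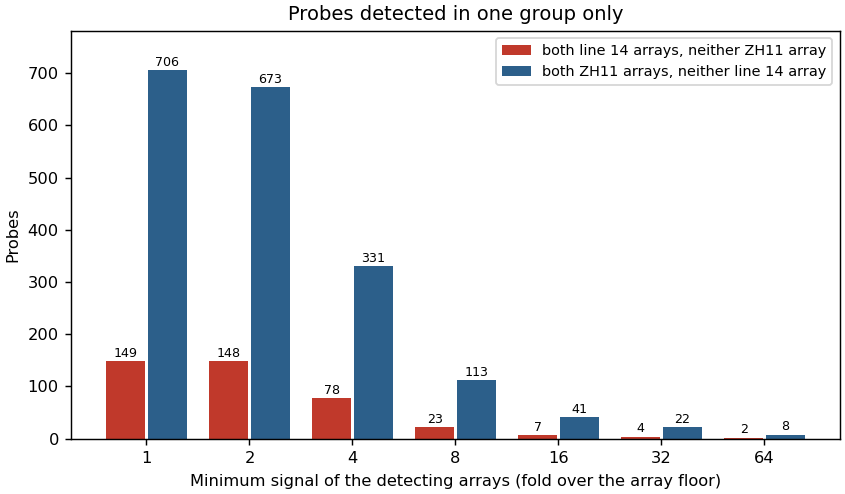
Number of probes (vertical axis) detected on both arrays of one group and neither of the other, by the minimum signal of the detecting arrays in fold over the array floor, the lowest signal of a detected probe (horizontal axis). Red bars are line 14 and blue bars ZH11, with 149 and 706 probes at the left and 7 and 41 at 16-fold.

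The probes that carry a name were those of microRNAs, small RNAs that guide the silencing of target transcripts and hold many plant transcription factor families in check. The array had 510 such probes for mature and flanking sequence, of which 98 passed the filter, 28 mature and 70 flanking. limma called 0 of them, against 0.0404% of all genes tested. An unadjusted p under 0.05 was found for 10 of the 98, against 7.12% of all genes tested. Of the 98, 59 had a difference below 0 and 39 above, against 10945 below and 11339 above over all genes tested. This split is set in part by the filter. It let in 20 of the probes through ZH11 alone, 16 of them below 0, and 2 through line 14 alone. Of the 55 detected on all 4 arrays, 31 were below 0, with a median of -0.04, against a median of 0.01 for the 19565 genes and probes of that kind. Detected microRNA probes numbered 80 and 80 in line 14, against 164 and 102 in ZH11. The 2 ZH11 arrays thus differed from each other by more probes than the nearer one did from line 14. A difference at a flanking probe does not show a change of the mature microRNA. Whether the probes for mature sequence read the mature microRNA or a longer transcript that holds it was not tested.

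Probes of miR171, which targets GRAS-domain factors of the scarecrow-like kind, were 3, all flanking. They were detected on both ZH11 arrays and on neither line 14 array, so only bounds can be given for line 14. The miR171c probe on the 5' side read -8.04 and -6.58 in line 14, against -4.54 and -5.46 in ZH11. On the processed signal its mean was at least 4.25-fold lower in line 14 without passing the test (fitted difference -2.31, 95% confidence interval -4.29 to -0.33, limma adjusted p = 0.629). Such a bound allows for the floor and not for the spread between replicates. The bounds were 3.50-fold for the miR171c probe on the 3' side and 2.51-fold for miR171b, neither past the test. The miR171b probe passed the filter through ZH11 alone. In line 2 the differences from ZH11 were -0.13 and -0.16 at the miR171c probes and -0.43 at miR171b. Over all genes with values on all 4 arrays, 18.1% had both line 14 arrays below both ZH11 arrays and 17.0% had them above.

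Among families of developmental regulators, miR164, which targets NAC factors, held the microRNA probe with the lowest unadjusted p. This probe, the miR164e 3' flank, read -5.75 and -4.34 in line 14, against -9.06 and -9.81 in ZH11, where neither array detected it. On the processed signal its mean was at least 10.2-fold higher in line 14 without passing the test (fitted difference 4.39, SE 0.95, limma adjusted p = 0.364). The family as a whole did not share this rise. Of its 7 probes, 3 were below 0 and 4 above, with a median of 0.06. The 3 detected on all 4 arrays had a median of 0.29. Its 1 mature probe, which passed the filter through ZH11 alone, was at -1.16. The microRNA probe with the next lowest unadjusted p was the miR415 5' flank. It read -7.81 and -7.32 in line 14, where 1 array detected it, against -6.16 and -6.12 in ZH11 (difference -1.42, SE 0.31, limma adjusted p = 0.364). Among the 5 probes of miR156, which targets SPL factors, the 3 below 0 were detected on neither line 14 array and passed the filter through ZH11 alone. The other 2, detected on all 4 arrays, had differences of 0.81 and 0.36. For miR159, which targets GAMYB factors, the 2 such probes had differences of -1.35 and 0.26, in opposite directions.

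miR160, which targets auxin response factors, and miR166, which targets class III HD-ZIP factors, had the most probes. Of 17 miR160 probes, 13 were detected on all 4 arrays, with a median difference of -0.54 and 12 below 0. Over the 17, replicates stood a median of 1.06 apart in line 14 and 1.25 apart in ZH11, wider than that difference. These gaps are between single arrays, which vary more than the group means behind the difference. Of 19 miR166 probes, 6 were detected on all 4 arrays, with a median of -0.59 and 6 below 0. Another 7 passed the filter through ZH11 alone. Over the 19, the median replicate gaps were 0.72 in line 14 and 0.76 in ZH11. Probes of a family share much of their sequence, so their counts are not independent.

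For miR162, whose target encodes the microRNA-processing enzyme DICER-LIKE1, the 4 flanking probes were detected on all 4 arrays, with differences between -1.04 and -0.50. The groups overlapped at each, and the ZH11 replicates stood a median of 1.73 apart. For miR169, which targets NF-YA factors, 5 of 8 probes were detected on all 4 arrays, with a median of -0.11. For miR396, which targets growth-regulating factors, 2 of 5 probes were, with differences of 1.44 and 1.22. At the first, ZH11 read -6.64 and -3.85, against -3.68 and -3.93 in line 14, so the groups overlapped. At the second, ZH11 read -7.13 and -5.15, against -5.05 and -4.79 in line 14. For miR168, whose target encodes ARGONAUTE1, 2 of 3 probes were detected on all 4 arrays, with differences of 0.30 and 0.12. For miR399, which acts in phosphate homeostasis, 1 of 3 was, at -0.19. The 3 flanking probes of miR172, which targets APETALA2-like factors, were detected on no array of line 14 or ZH11 and passed the filter through line 2. In none of these families did a probe pass the test.

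**Figure D5:**
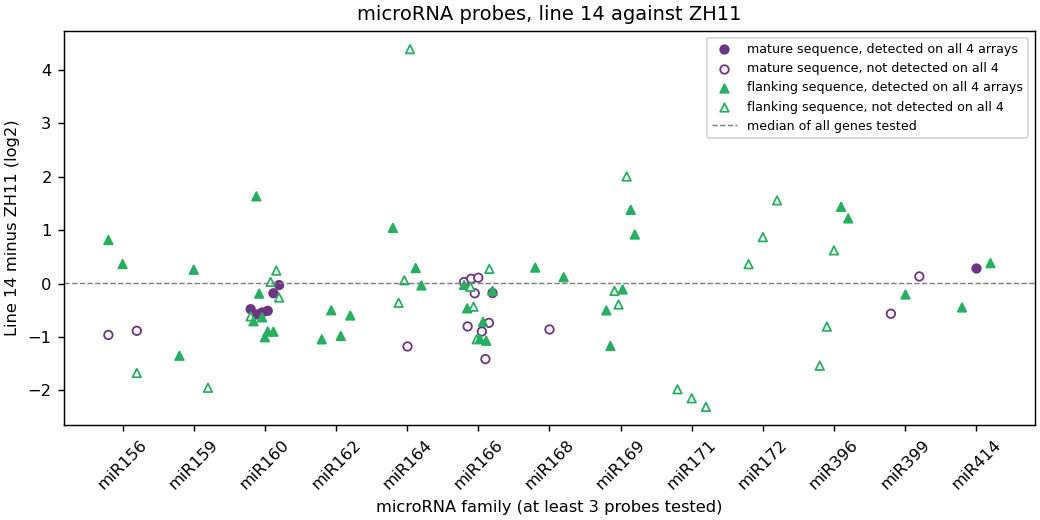
Difference of line 14 minus ZH11 on the log2 scale (vertical axis) for microRNA probes of the 13 families with at least 3 tested probes (horizontal axis). Circles are mature and triangles flanking sequence, filled where detected on all 4 arrays and open otherwise, and the dashed line is the median of all genes at 0.01. The 3 miR171 probes and the miR164e probe at 4.39 are open.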

How the data were processed

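Per the file headers, Feature Extraction 10.7.3.1 read Agilent arrays of design 15241 in 1 colour (Cy3). The deposited processed signal is a linear intensity, background-subtracted and detrended within the array. The deposited quality flags are 0 or 1. The table the authors deposited holds log2 values. Sorted, its columns differ by at most 0.000577, each has a median of 10.4, and they correlated at 0.998 or above with the log2 processed signal of the same array. How it was normalized was not given in the sources used here.

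Control spots (1417 of 45151) and 59 named control probes were left out, with flagged outlier spots (0.0983% to 0.183% of spots per array). No spot was saturated. Each array's 75th percentile was subtracted from its log2 processed signal, and spots were averaged per probe. A probe was kept where at least 0.5 of its spots were well above background on both arrays of at least 1 group (32419 probes). The brightest kept probe stood for a locus, which gave 22186 loci and 98 microRNA probes. limma 3.58.1 (R 4.3.3) fitted the 6 arrays together, with Benjamini-Hochberg adjustment over all tested, 3 residual degrees of freedom and 2.36 from the prior. The number of arrays limits the precision, and p-values measure only the spread between these samples. The code was tested on simulated data. Figures used matplotlib 3.10.9.

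The comparison and lists were chosen with earlier results of these data known. Of 29695 locus IDs, 0 matched the 39387 genes of the reference table, so of the planned gene lists only the microRNA probes could be formed. The rule for named genes took OsMADS29, the called genes and the largest uncalled differences detected on all 4 arrays, with IDs printed for 2 rises and 2 falls only, plus the 2 microRNA probes with the lowest unadjusted p. The uncalled genes also had to have groups that do not overlap and an unadjusted limma p under 0.05. Normexp used the median spot signal, since the files hold no mean signal.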

Additional observations from a re-analysis of the deposited data

How the results depend on the processing

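The 9 calls (7 higher, 2 lower) became 30 (16 and 14) after quantile normalization and 30 (16 and 14) in the authors' deposited values, which include 8 of the 9, and 24 (10 and 14) after normexp with an offset of 50 and quantile normalization. At an adjusted p of 0.10 there were 54 (32 and 22), and with every probe on its own 14, of which 6 were lower. Median scaling called 6, of which 1 was lower. With the error allowed to follow signal intensity limma called 8 (5 higher, 3 lower), and only 5 of the 9 were among them. With robust moderation of the error it called the same 9. limma called 1 gene with no filter on dim probes, from line 14 and ZH11 arrays only, or with array weights, in each case Os03g0663900 (1 higher, 0 lower). Limited to probes detected on all 4 arrays it called 1, Os01g0822900 (0 higher, 1 lower), since that filter removes the other 8, each dim in line 14 or ZH11. With the replicate number as a replicate block, limma called 0 (0 higher, 0 lower), with 1736 at an unadjusted p under 0.05. Replicate deviations of line 14 and ZH11 correlated at 0.02, those of line 2 and ZH11 at 0.06 and those of the 2 lines at 0.08. Whether samples of the same number share more than that number was not tested. Without any 1 array limma called 0 genes (0 higher, 0 lower), with 1103 to 3842 at an unadjusted p under 0.05. Over the 19 alternatives run, the 9 called genes kept their direction in all 154 values, and 98 of them lost the call. OsMADS29 stayed below 0 and uncalled in every alternative run, between -0.79 and -0.30. Kept direction was a check only where the scaling or background correction changed. Settings that changed only the error model, the genes tested or the line 2 arrays left each of these differences as it was. Leaving out 1 array cannot reverse a gene whose groups do not overlap, as held for the called genes and OsMADS29. The cause of the changes in the calls was not tested, except that leaving out an array also removes degrees of freedom.

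The probes detected only in line 14 or only in ZH11, 149 and 706, became 78 and 331 at 4-fold over the floor and 7 and 41 at 16-fold. Without 1 of the 4 arrays they ranged from 294 to 918 and from 1104 to 2024, since fewer arrays must meet the condition. The 16-fold setting and these array exclusions were chosen after seeing the data. Signal over background limits the dim genes, for which only bounds can be given.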
